A study of Mus musculus with 8 samples.

Results

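The genes described here are 9 readers, writers and erasers of DNA methylation in cultured mouse cardiac fibroblasts: the methyl-CpG binding domain genes Mbd1, Mbd2, Mbd3 and Mbd4, the DNA methyltransferase genes Dnmt1 and Dnmt3a, and the dioxygenase genes Tet1, Tet2 and Tet3. They are 9 of the 54532 genes in the deposited tables, found by gene name. Of these, 8 were taken as members of their families, while Mbd2 was chosen by its measured values: its normalised level did not overlap between the plasmids compared. The contrast of Mbd2 between the plasmids is therefore given as a description without a test.

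All cells were C57BL/6 cardiac fibroblasts at passage 2, with no other allele named in the labels. One group (n = 4 libraries) received the plasmid pAAV.CMV.SV40.THBS4-HA.SV40(polyA), which carries HA-tagged murine Thbs4, the gene of thrombospondin-4 (TSP-4), behind a CMV promoter by its name. The other group (n = 4 libraries) received pAAV-CA, called the empty plasmid in the labels. By name the constructs differ in more than the insert, and every contrast below is between these plasmids. After transfection both groups spent 12 h in standard medium and 24 h without serum before RNA was taken. Each group has libraries lettered A, B, C and D. What a letter marks is not in the labels, nor is an animal or culture of origin for any library. The p-values below therefore measure the spread between these libraries, which may be technical.

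DNA methylation is laid down on cytosines followed by guanine (CpG). DNMT1 copies the pattern onto the new strand after replication, with UHRF1 as its guide, while DNMT3A methylates sites that carried no mark. MBD1, MBD2 and MBD4 bind methylated CpG through a shared domain. MBD2 and MBD3 are alternative subunits of the nucleosome remodelling and deacetylase complex (NuRD), and mammalian MBD3 binds methylated DNA weakly. MBD1 recruits histone H3 lysine 9 methylation, and MBD4 is a glycosylase that removes thymine left by deamination of methylated cytosine. TET enzymes oxidise 5-methylcytosine with 2-oxoglutarate and iron, and the glycosylase TDG removes the later products. In fibroblasts DNA methylation is part of the machinery that keeps germline and lineage genes silent.

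The promoters of these genes differ in CpG content, the substrate of the enzymes they encode, and those of 3 genes are shown because they span that range. RefSeq promoter windows on GRCm38.p6, 250 bases before to 50 after each start, were at hand for 7 of the 9 genes and gave 11 windows. In the windows below, written 5′ to 3′ on the strand of the gene, capitals mark each CpG. Dnmt1 has 3 windows, of which the most upstream and the most CpG-rich are shown. The 4 windows shown are on the minus strand: Mbd3 at chr10:80399482-80399781, Dnmt1 upstream at chr9:20959839-20960138, Dnmt1 downstream at chr9:20952574-20952873 and Tet2 at chr3:133544341-133544640.
Mbd3: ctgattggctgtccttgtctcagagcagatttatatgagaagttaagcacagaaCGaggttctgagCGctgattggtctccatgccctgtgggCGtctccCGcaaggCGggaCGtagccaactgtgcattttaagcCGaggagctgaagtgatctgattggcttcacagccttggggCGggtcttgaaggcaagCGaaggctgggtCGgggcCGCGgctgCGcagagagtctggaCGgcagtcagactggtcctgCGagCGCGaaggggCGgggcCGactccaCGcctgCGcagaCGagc
Dnmt1 upstream: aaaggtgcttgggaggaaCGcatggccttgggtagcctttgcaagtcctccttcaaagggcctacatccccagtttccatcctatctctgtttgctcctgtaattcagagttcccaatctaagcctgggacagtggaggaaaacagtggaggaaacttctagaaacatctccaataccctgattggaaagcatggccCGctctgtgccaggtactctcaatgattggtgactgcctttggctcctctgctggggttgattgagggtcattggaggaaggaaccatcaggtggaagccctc
Dnmt1 downstream: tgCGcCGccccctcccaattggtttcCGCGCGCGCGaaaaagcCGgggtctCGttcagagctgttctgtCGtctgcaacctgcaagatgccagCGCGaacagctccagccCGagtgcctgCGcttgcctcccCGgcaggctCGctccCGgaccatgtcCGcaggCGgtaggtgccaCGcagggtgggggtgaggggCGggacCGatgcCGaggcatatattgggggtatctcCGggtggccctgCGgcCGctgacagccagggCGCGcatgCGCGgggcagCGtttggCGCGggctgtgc
Tet2: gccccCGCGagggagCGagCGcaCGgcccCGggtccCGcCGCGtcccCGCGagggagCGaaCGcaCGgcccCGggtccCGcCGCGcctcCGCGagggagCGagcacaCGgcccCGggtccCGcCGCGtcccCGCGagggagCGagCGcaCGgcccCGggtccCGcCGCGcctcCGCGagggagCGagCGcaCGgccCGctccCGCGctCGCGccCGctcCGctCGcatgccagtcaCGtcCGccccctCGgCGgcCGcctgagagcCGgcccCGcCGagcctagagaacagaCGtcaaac

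The Tet2 window holds 57 CpG, a number reached by 0.152% of the 32851 RefSeq promoters of this length, whose median is 7. The Mbd3 window holds 22 CpG, reached by 23.1% of promoters. The upstream Dnmt1 window holds 2 CpG, and 85.9% of promoters hold at least as many. The downstream Dnmt1 window holds 33 CpG, reached by 8.56%. It lies 7265 bases inside the upstream start of the gene. The words TTTCCCGC, TTTGGCGC, TTTCGCGC and TTTGCCGC, which resemble sites of the cell cycle factor E2F, were searched on both strands without a check for overlap with other motifs. The downstream Dnmt1 window holds TTTGGCGC and TTTCGCGC once each, and the other 10 windows of these genes hold none of the 4 words. Of all promoters of this length, 2.26% hold at least 1 of them. As background, mouse Dnmt1 has an oocyte start and a somatic start. The tables count reads per gene, so the starts cannot be told apart in them. The remaining windows held 25 CpG (Mbd4), 12 (the third of Dnmt1), 46, 47 and 18 (Dnmt3a), 17 (Tet1) and 22 (Tet3).

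The cultures were checked before the comparisons. Total counts per library ranged from 17123735 to 22530947. Thbs4 had 25754 to 38063 counts in the libraries of the TSP-4 plasmid and 2 to 11 in those of the empty plasmid. Fibroblast markers summed to 9309 to 14131 CPM (counts scaled to library size) in TSP-4 plasmid cells and 9160.1 to 14490.0 in empty plasmid cells. Macrophage markers were present in every library, with none of 12 at 0, and summed to 323 to 1841 and 356 to 1489 CPM. Epicardial and mesothelial markers summed to 538 to 974 and 496 to 992 CPM in the same order of plasmids. Smooth muscle and pericyte markers summed to 888 to 1695 and 820 to 1665 CPM, and endothelial markers to 51.0 to 74.0 and 52.6 to 85.5. T, B and NK cell markers had at most 10 counts in a library, with Cd3d and Ncr1 at 0 throughout, and the heart muscle gene Myh6 had 0 to 2. Of 8 heart muscle markers 1 had enough counts to be tested, Tnnt2, at 189 to 373 counts in a library. Libraries of the same letter resembled each other: their deviations from the group means correlated across genes with r from 0.508 to 0.651, against -0.570 to 0.323 for different letters. Bulk RNA was measured, so a change in the number of cells of a type and a change in RNA per cell cannot be told apart.

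Levels were compared between genes only per length, in the deposited FPKM, which are counts scaled by gene length and library total. Of the binders 3 stood highest, followed by the methyltransferase genes, while the binder Mbd4 lay among the TET genes at the low end. Mbd3 led with 69.2 ± 4.95 FPKM (SD, n = 8 libraries), followed by Mbd2 with 36.4 ± 4.40 and Mbd1 with 17.8 ± 3.19. Dnmt1 stood at 10.6 ± 0.703 FPKM, the higher of the methyltransferases, and Dnmt3a at 2.56 ± 0.173. Tet3 was the leading TET gene at 2.28 ± 0.121 FPKM, 3.71 times Tet2 at 0.614 ± 0.0543. Mbd4, at 0.513 ± 0.104 FPKM, lay below Tet3 and Tet2 in 8 of 8 libraries. Tet1 was last at 0.0366 ± 0.00698 FPKM and rested on 7 to 15 counts per library. Over all 54532 genes, 704 had a higher mean FPKM than Mbd3, 4629 than Dnmt1 and 21953 than Tet1.

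**Figure D1:**
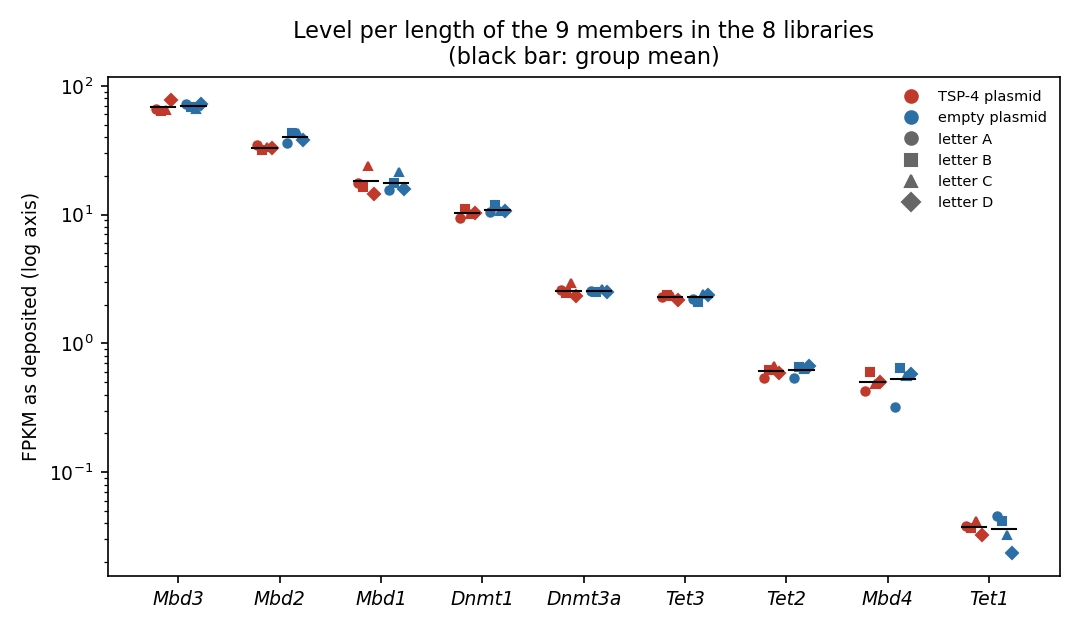
Deposited FPKM (log axis) of the 9 genes in each of the 8 libraries, ordered by their mean, with TSP-4 plasmid and empty plasmid libraries as separate symbols. Mbd3 stands at 64.2 to 78.2 FPKM and Tet1 at 0.0235 to 0.0457, and the libraries of both plasmids share the same order of genes.

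The plot of FPKM by gene shows that most neighbours in this order do not touch. Mbd3 ran from 64.2 to 78.2 FPKM over the 8 libraries, Mbd2 from 31.9 to 43.2, Mbd1 from 14.5 to 23.7 and Dnmt1 from 9.41 to 11.8. Only Dnmt3a (2.32 to 2.91) with Tet3 (2.09 to 2.43), and Tet2 (0.536 to 0.671) with Mbd4 (0.321 to 0.640), had overlapping ranges. Within a library even these pairs kept their order, in 8 of 8 libraries. With CPM per kilobase in place of the deposited FPKM the order was the same for all 9. These values divide by the summed exon length of a gene, which is above the longest annotated transcript for each of the 9. As a ratio of these lengths the gap is widest for Tet2 (16870 against 9179 bases) and narrowest for Tet1 (15457 against 14369). This ratio is of a similar order for Mbd1 (6616 against 3920), Mbd2 (3214 against 1953) and Dnmt3a (16642 against 9685) as for Tet2.

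The same holds for the families as sums of FPKM. The 4 binders summed to 119.8 ± 5.47 FPKM in TSP-4 plasmid cells and 128.0 ± 3.28 in empty plasmid cells (SD, n = 4 each). Of these sums Mbd2 made up 27.7 ± 1.33% and 31.0 ± 2.16%, and Mbd3 56.8 ± 3.88% and 54.9 ± 3.72%. The 2 methyltransferases summed to 12.8 ± 0.618 and 13.4 ± 0.612 FPKM, and the 3 TET genes to 2.92 ± 0.130 and 2.94 ± 0.176. The binder sums include Mbd2, so no test is given for them. Of the family members outside the 9, Mbd6 had 633 to 1004 counts, Mbd5 365 to 477, the de novo enzyme gene Dnmt3b 10 to 18 and the rodent germline enzyme gene Dnmt3c 3 to 13.

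Mbd2 was the single gene of the 9 whose normalised level did not overlap between the plasmids, by the choice that brought it in. Its level was 111, 103, 107 and 106 CPM in libraries A to D of the TSP-4 plasmid and 114, 140, 139 and 121 CPM in those of the empty plasmid. The former lay close together and the latter apart from one another, with B and C high and A low. Groups separated in this direction in 127 of the 14723 genes tested, or 0.863%, and in either direction in 223, or 1.51%. The mean was 107 ± 3.08 CPM in TSP-4 plasmid cells and 129 ± 12.9 in empty plasmid cells (SD, n = 4 each), 17.2% lower, or -0.27 on the log2 scale in the fit. The difference within a letter was -0.05 for A, -0.44 for B, -0.37 for C and -0.20 for D on the log2 scale.

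The separation of Mbd2 is narrow at its edge. The highest TSP-4 plasmid library (A, 2449 counts) and the lowest empty plasmid library (A, 2435 counts) lay 3.86 CPM apart, and their 95% exact Poisson intervals, which cover counting error only, ran from 106 to 115 and from 110 to 119 CPM. On raw counts the groups overlapped, at 1808 to 2449 against 2328 to 2727. They did not overlap in deposited FPKM, 31.9 to 34.5 against 35.7 to 43.2, or after DESeq2 size factors in place of edgeR's TMM factors. The gene just outside the choice was Dnmt1, with 3 TSP-4 plasmid libraries below every empty plasmid library and the other within their range. Set against Mbd3, its alternative in NuRD, the ratio of Mbd2 to Mbd3 FPKM was 0.524, 0.497, 0.516 and 0.419 in TSP-4 plasmid libraries A to D. It was 0.490, 0.627, 0.642 and 0.517 in empty plasmid libraries A to D, so that on this ratio the groups overlapped. The ranges of the macrophage and fibroblast marker sums given above overlapped between the plasmids. Within letters the macrophage sums differed in both directions, TSP-4 plasmid against empty plasmid. They were 323 against 356 CPM in A, 808 against 1088 in B, 1841 against 1489 in C and 808 against 670 in D. Whether the mix of cells had a part in the level of Mbd2 was not tested.

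**Figure D2:**
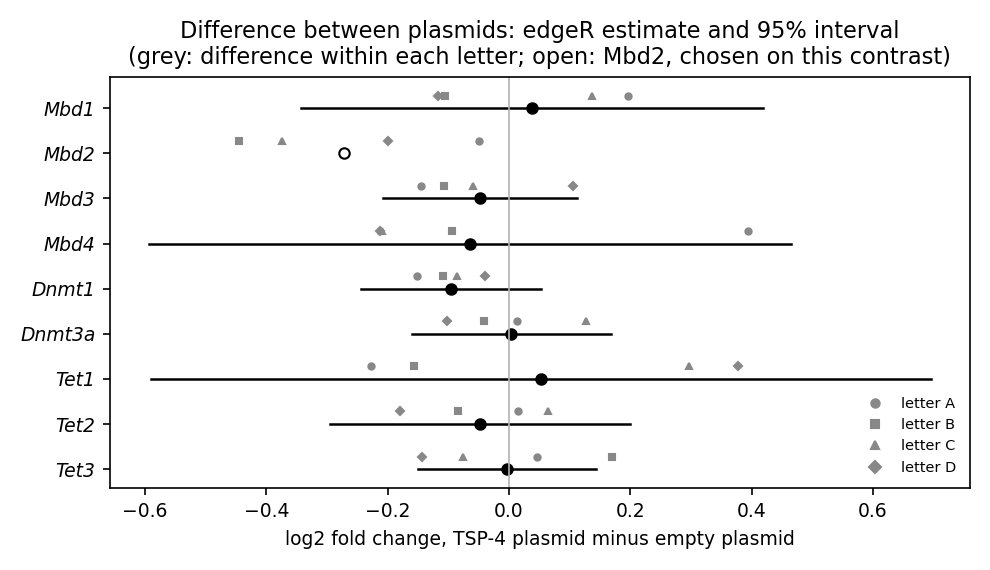
Log2 fold change of each of the 9 genes, TSP-4 plasmid minus empty plasmid, with 95% intervals from edgeR's fit for all but Mbd2 (open symbol), and the difference within each letter as grey points. Mbd2 lies at -0.27, which is how it was chosen and is no test, and the intervals of the other 8 genes include 0.

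None of the other 8 genes was called between the plasmids. By edgeR's quasi-likelihood test with Benjamini-Hochberg adjustment over 14723 genes, each had an adjusted p of 0.999968, and 0 of 8 had an unadjusted p under 0.05, also by DESeq2 and by limma voom. The background is low: 1 gene in all, or 0.00679%, was called at an adjusted p under 0.05, and 235, or 1.6%, had an unadjusted p under 0.05. Their median log2 fold change was -0.03, with 5 of 8 below 0, beside 50.1% of all genes below 0. As a miss of the threshold does not show equal levels, the intervals are given with each gene. They come from the fit without the letter as a term, so spread between letters enters them. With the letter in the fit the standard error was 0.055 in place of 0.17 for Mbd1, and 0.33 in place of 0.28 for Tet1.

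Among the other binders, Mbd1 stood at 117, 109, 157 and 96.2 CPM in TSP-4 plasmid libraries A to D and at 102, 117, 143 and 104 in empty plasmid libraries A to D. C was high in both groups, and the groups overlapped fully, with a log2 fold change of 0.04 (95% interval -0.34 to 0.42). Mbd3 stood at 130, 128, 128 and 156 CPM in TSP-4 plasmid cells and 144, 138, 134 and 145 in empty plasmid cells. The TSP-4 plasmid library D was the highest of the 8, and the fold change was -0.05 (-0.21 to 0.11). Mbd4 had 36 to 59 counts per library, at 2.66 ± 0.393 and 2.79 ± 0.755 CPM, and its wide interval (-0.59 to 0.46) allows a change of up to 1.38-fold higher or to 0.663 of the level.

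Of the methyltransferase genes, Dnmt1 stood at 69.3, 81.9, 74.5 and 76.8 CPM in TSP-4 plasmid libraries A to D and at 77.0, 88.3, 79.1 and 78.9 in empty plasmid libraries A to D. B was the highest in both groups, and the TSP-4 plasmid library was the lower one in 4 of 4 letters. The means were 75.6 ± 5.23 and 80.8 ± 5.07 CPM, a log2 fold change of -0.10 (-0.24 to 0.05; edgeR unadjusted p = 0.178). With the letter as a replicate block edgeR gave the same -0.10 and an unadjusted p of 0.0350, the single one of the 8 genes under 0.05, and an adjusted p of 0.575. In that fit 1196 genes, or 8.12%, had an unadjusted p under 0.05 and 2, or 0.0136%, were called. Dnmt3a ran from 38.8 to 48.6 CPM in TSP-4 plasmid cells and from 41.6 to 44.5 in empty plasmid cells. Its fold change was 0.00 (-0.16 to 0.17).

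The TET genes had intervals on both sides of 0. Tet3 stood at 37.8, 39.6, 39.0 and 36.3 CPM in TSP-4 plasmid libraries A to D and at 36.6, 35.2, 41.1 and 40.1 in empty plasmid libraries A to D. No letter was set apart in both groups, and the fold change was -0.00 on the log2 scale (-0.15 to 0.14). Tet2 stood at 10.2 ± 0.957 and 10.6 ± 1.06 CPM, a fold change of -0.05 (-0.29 to 0.20). Tet1, at 0.578 ± 0.0593 and 0.557 ± 0.152 CPM, had an interval from -0.59 to 0.70, which allows a change of up to 1.62-fold at this depth.

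Both groups carry the same letters, so the spread of the genes over the letters can be tested apart from the contrast that chose Mbd2. For Mbd2 itself it is a description, since the same 8 values enter both. Between letters 4134 genes, or 28.1%, were called by edgeR's quasi-likelihood test of the letter terms at an adjusted p under 0.05, and 5766, or 39.2%, had an unadjusted p under 0.05. Of the 8 genes other than Mbd2, 1 was called, Mbd1, and 3 had an unadjusted p under 0.05 (Mbd1, Dnmt1 and Mbd3). Both shares were no higher than the background. The span from the highest to the lowest letter had a median of 0.22 over the 9 genes, Mbd2 among them. Over all genes tested it was 0.30, on the log2 scale.

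**Figure D3:**
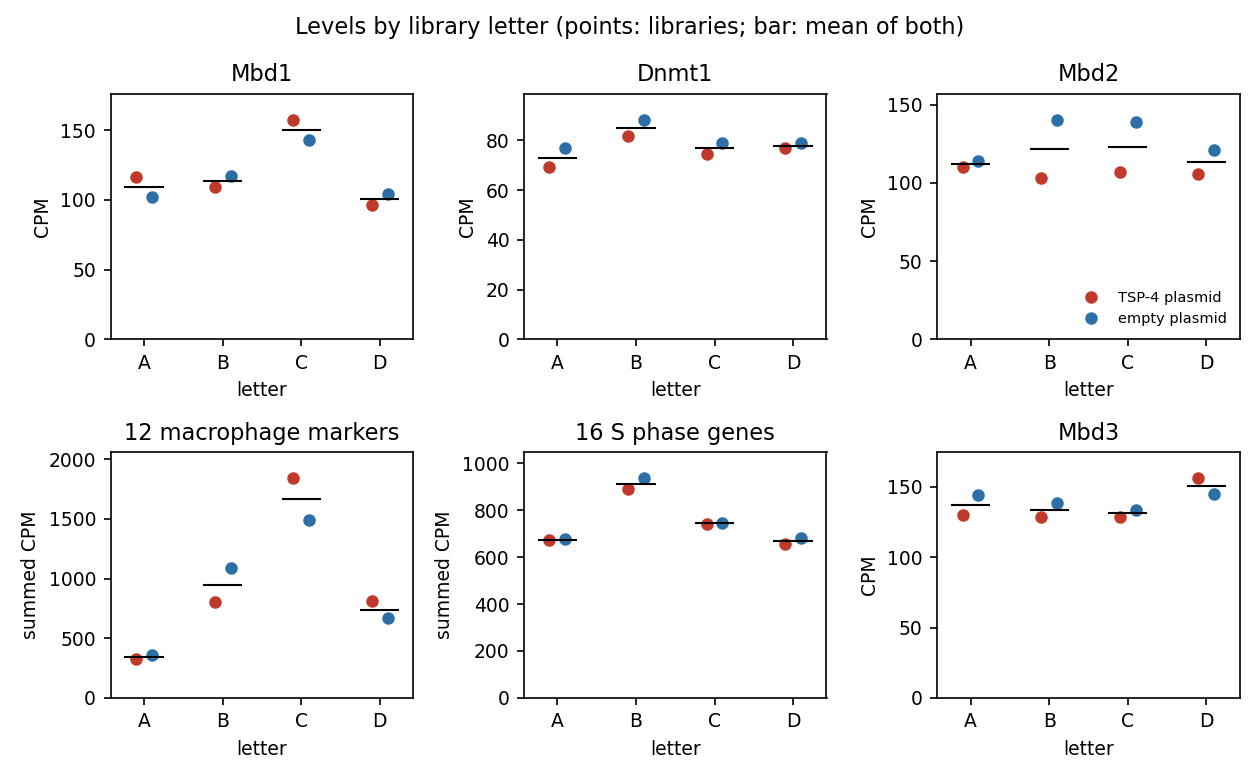
CPM of Mbd1, Dnmt1, Mbd2 and Mbd3 by letter, with the TSP-4 plasmid and the empty plasmid library of each letter as separate points. Further panels show the summed CPM of 12 macrophage markers and of 16 S phase and proliferation genes. Mbd1 is high in letter C with both plasmids, at 157 and 143 CPM. Mbd2 is lower in the TSP-4 plasmid library of each of the 4 letters, which its choice for groups that do not overlap fixed in advance.

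Mbd1 was highest in letter C. Its mean of both libraries was 109.3 CPM in letter A, 113.2 in B, 150.3 in C and 100.3 in D. Both C libraries, at 143 and 157 CPM, lay above the other 6, at 96.2 to 117. The span was 0.58 on the log2 scale (edgeR adjusted p = 0.000488). It was exceeded by 25.5% of all genes tested. The call rested on letter C: with both C libraries left out the span was 0.17 and the adjusted p 0.264. The coefficient of variation of Mbd1 over the 8 libraries was 18.0%, against 5.39% for Tet3 and 6.69% for Dnmt3a.

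Macrophage markers moved over the letters with the same highest letter. Of 12 markers 11, or 91.7%, were called between letters, with C highest and A lowest, beside 28.1% of all genes. The summed CPM of the 12 averaged 339 in A, 948 in B, 1665 in C and 739 in D. Mbd1 was lowest in D, and the macrophage markers were lowest in A. The summed CPM of 8 endothelial markers was also highest in C, at 74.1 in A, 51.8 in B, 75.8 in C and 66.6 in D. Of these 8, 5 were called between letters, or 62.5%, not all of them with C highest. Whether macrophages or endothelial cells had a part in the level of Mbd1 was not tested. Of 5 partners in histone H3 lysine 9 methylation 1 was called between letters, a share of 20% beside the 28.1% of all genes. This gene, Atf7ip, which encodes a partner of MBD1, was highest in C and lowest in D, with a span of 0.37 (edgeR adjusted p = 0.00175), the same pair of letters as Mbd1. Setdb1, which encodes a histone methyltransferase, was highest in D and lowest in B (adjusted p = 0.423), and Suv39h1, Suv39h2 and Cbx5 had other pairs of letters. Dnmt3a had the same highest and lowest letter as Mbd1 without passing the test (span 0.21, adjusted p = 0.175).

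Dnmt1 averaged 73.1 CPM in letter A, 85.1 in B, 76.8 in C and 77.9 in D. B was highest and A lowest with either plasmid, with a span of 0.22 that did not pass (edgeR adjusted p = 0.0550). Of its 6 partners in copying methylation, 3, or 50%, were called between letters, beside 28.1% of all genes. Each had the same highest and lowest letter as Dnmt1. Uhrf1 had a span of 0.62 (edgeR adjusted p = 0.000931), the replication clamp gene Pcna 0.52 (adjusted p = 0.000553) and the remodeller gene Hells 0.62 (adjusted p = 0.0161). The other 3, Uhrf2, Usp7 and Cdca7, were not called (adjusted p = 0.564, 0.373 and 0.614) and had other pairs of letters. S phase and proliferation genes were called between letters in 16 of 16, with B highest, beside 28.1% of all genes. Their summed CPM averaged 674 in A, 913 in B, 745 in C and 668 in D. Fibroblast markers were also highest in B, at a summed 14310.3 CPM. The part of cycling cells in the level of Dnmt1 was not tested.

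The remaining genes of the 9 did not pass between letters. Mbd3 had a span of 0.20, with D highest (edgeR adjusted p = 0.0853), Mbd4 of 0.74 on few counts (adjusted p = 0.158) and Tet2 of 0.29 (adjusted p = 0.261). The span of Tet3 was 0.11 (adjusted p = 0.695). That of Mbd2 was 0.12, given without a test, since a gene chosen for groups that do not overlap is likely to vary little within them. Tet1 had a span of 0.57 (adjusted p = 0.758), with its lowest letter at 7 to 9 counts.

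**Figure D4:**
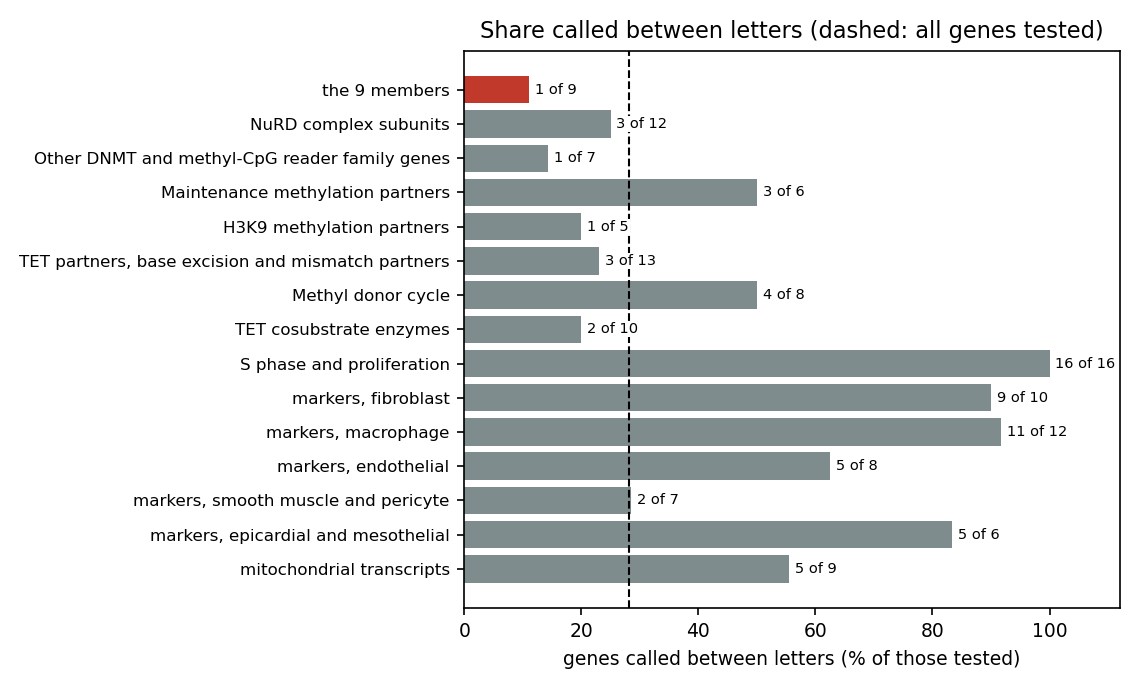
Share of tested genes called between letters (percent, edgeR adjusted p under 0.05) in the 9 genes and in each gene list with at least 5 tested genes, with a dashed line at the 28.1% of all genes tested. The 9 genes stand at 11.1%, which is 1 called gene, and the S phase list at 100%. The 9 are counted with Mbd2, whose choice makes little spread within the groups likely, so their share is a description.

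Genes that work with the 9 were read from the same fits. Between the plasmids 0 genes were called in each of the lists below, by edgeR's quasi-likelihood test. Of 12 NuRD subunit genes, 5 lay above and 7 below 0, and the median log2 fold change was -0.02. The remodeller gene Chd4 had the highest CPM of them, a value not scaled by gene length. It stood at 314 ± 10.9 CPM in TSP-4 plasmid cells and 319 ± 15.8 in empty plasmid cells (SD, n = 4 each). With the replicate block, 2 of the 12 had an unadjusted p under 0.05 (Mta2 and Cdk2ap1, named after their values were seen), beside 8.12% of all genes, and 0 were called. The medians lay near 0 for the other family genes (-0.02, 3 of 7 above 0), for partners in histone H3 lysine 9 methylation (-0.02, 1 of 5 above), for the methyl donor cycle that makes S-adenosylmethionine (-0.01, 4 of 8 above) and for enzymes that make or remove the substrates of TET enzymes (0.01, 5 of 10 above).

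Of the 6 partners of DNMT1, 1 lay above and 5 below 0. Their median was -0.07 on the log2 scale and moved with single libraries. It was -0.02 without empty plasmid library B, -0.03 without TSP-4 plasmid library A, -0.13 without empty plasmid library A and -0.14 without TSP-4 plasmid library B. Leaving out 1 library leaves its letter with 1 plasmid only. With the replicate block, leaving out both libraries of a letter gave -0.08 (A), -0.09 (B), -0.10 (C) and -0.12 (D). Uhrf1 stood at 24.8 ± 4.65 CPM in TSP-4 plasmid cells and 29.3 ± 6.94 in empty plasmid cells, a log2 fold change of -0.24. With the replicate block it was -0.23 (edgeR adjusted p = 0.425). By edgeR with the block, 3 of the 6 partners (Uhrf1, Pcna and Hells) had an unadjusted p under 0.05. The share of all genes was 8.12%, and 0 of the 6 were called. Of the 16 S phase and proliferation genes 15 lay below 0, with a median of -0.10. The median turned to 0.02 without empty plasmid library B, which leaves letter B, the highest for these genes, with the TSP-4 plasmid alone. It was -0.0082 without TSP-4 plasmid library A, -0.04 without TSP-4 plasmid library D, -0.15 without empty plasmid library A and -0.20 without TSP-4 plasmid library B. With the block 4 of the 16 had an unadjusted p under 0.05, beside 8.12% of all genes, and 0 were called. Their summed CPM ran from 655 to 890 in TSP-4 plasmid cells and from 677 to 936 in empty plasmid cells, which overlap.

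Of the genes that follow TET oxidation, in base excision and mismatch repair, with the TET partners Ogt, Cxxc4 and Cxxc5, 13 of 14 had enough counts. Of these 6 lay above and 7 below 0, with a median of -0.00. Ogt, which encodes the O-GlcNAc transferase bound by TET proteins, stood at 153 ± 12.1 and 154 ± 5.49 CPM. Between letters 3 of the 13 were called, or 23.1%, no more than the 28.1% of all genes. They included Cxxc5, a CXXC zinc finger gene, with A highest and C lowest (span 0.88), and Tdg with D highest and C lowest (0.48). The DNA ligase gene Lig3 (0.29) was called as well.

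Germline genes that promoter methylation keeps silent in somatic cells were also read. Methylation was not measured here, and whether it had a part in their low counts was not tested. Of 10, none had enough counts to be tested, and 8 had at most 7 counts in any library. Ddx4 had 5 to 11 counts and Slc25a31 2 to 40. Their summed CPM ran from 1.24 to 1.71 in TSP-4 plasmid cells and from 1.02 to 2.58 in empty plasmid cells, so the groups overlapped.

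The genes whose pattern over the 8 libraries was most like that of Mbd2 were found by Pearson's r of log2 CPM, which describes these libraries alone. They share their plasmid and their letter, and Mbd2 was chosen for its pattern, so no test is given. The 5 highest were Hilpda, a lipid droplet protein gene (r = 0.963), the prolyl hydroxylase gene Egln1 (0.956), E230016M11Rik (0.955), the iron-sulphur cluster gene Iba57 (0.942) and E130307A14Rik (0.938). For Dnmt1 they were the splicing factor gene Rbfox1 (r = 0.967), Gm13583 (0.958), the histone chaperone gene Nasp (0.955), the nucleoside transporter gene Slc29a1 (0.953) and the exonuclease gene Exo1 (0.951). Genes with r of 0.9 or more numbered 12 for Mbd2 and 36 for Dnmt1. Among the 9 genes themselves the closest pair was Mbd1 with Dnmt3a (r = 0.909), both highest in letter C, and the most opposed was Mbd1 with Mbd3 (r = -0.697), whose highest letters were C and D.

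In the tables' GRCm38 coordinates Mbd1 lies at chr18:74267605-74282732 and Mbd2 at chr18:70568189-70626131, both on the plus strand, and Mbd3 at chr10:80392539-80399550 and Mbd4 at chr6:115840697-115853371, both on the minus strand. Dnmt1 lies at chr9:20907209-20959888 on the minus strand and Dnmt3a at chr12:3806007-3914443 on the plus strand. Tet1 lies at chr10:62804570-62908996, Tet2 at chr3:133463679-133545139 and Tet3 at chr6:83362373-83459084, all on the minus strand. Exons of 3 of the 9 overlap an annotated gene on the other strand: Mbd4 shares 264 bases with Gm44206, Dnmt3a 133 with Dnmt3aos and Tet2 43 with Gm42567. Those genes had at most 4 counts in a library.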

How the data were processed

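The authors deposited whole-number read counts per gene and FPKM values for 8 libraries of poly(A) RNA. The deposited FPKM are counts over gene length and library total, up to a constant of 0.974 to 1.019 for each library. HTSeq 0.6.1, Cufflinks 2.1.1, TopHat2 2.0 and CASAVA are listed, without their roles, in the submitters' processing notes, as are GRCm38.p6 and mm10. Strand, annotation release and the handling of multiply mapped reads were not given in the sources used here. The tables' coordinates of the 9 genes equal those of GENCODE M21.

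Counts were tested with edgeR's robust quasi-likelihood test (edgeR 4.0.16, R 4.3.3) with TMM factors. The filter on low counts (edgeR's filterByExpr, minimum count 10) left 14723 genes, all 9 members among them. P-values were Benjamini-Hochberg adjusted over all genes tested, with a threshold of 0.05. The plasmid fit has group as its single term, and the letter fit has group and letter with a test of the 3 letter terms. Both were tested on simulated data. DESeq2 1.42.0 and limma 3.58.1 served as alternatives, as did other scaling, no filter, log2(FPKM + 0.1) and log2(FPKM + 1), and leaving out libraries. CPM are from edgeR, with log2 CPM at a prior count of 2. Intervals and p-values between plasmids for Mbd2 are not given.

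The letters pair the libraries by the data and not by the labels: for each letter the deviations from the group means correlated with r of at least 0.508, above the limit of 0.1. The members and the 17 gene lists (158 entries) were chosen with earlier results of these data known, so they support nothing independently. The text names the 9 members, in each list called genes or up to 2 with the highest mean CPM (between letters up to 3 called genes with the smallest p), and the 5 genes most like Mbd2 and Dnmt1, with a part of these printed. Mta2, Cdk2ap1, Mbd5, Mbd6, Dnmt3b, Dnmt3c, Cdca7, Setdb1, Suv39h1, Suv39h2, Ddx4, Slc25a31 and the pairs of members were picked after their values were seen. No library was left out of the main fits.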

Additional observations from a re-analysis of the deposited data

Results flagged for a closer look

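Among 52 sets of 4 values (each gene or list in each plasmid group), 3 had 1 library far from the other 3 by Dixon's criterion, which chance gives in about 5% of such sets. Mbd3 in TSP-4 plasmid library D stood at 156 CPM against 128 to 130 in the other 3, with a gap of 0.928 of the range. The summed CPM of the NuRD subunit genes was also highest in TSP-4 plasmid library D, at 1424 against 1384 to 1389 (0.877 of the range). The summed CPM of smooth muscle and pericyte markers was 1695 in TSP-4 plasmid library A against 888 to 975 in the others (0.893 of the range). Leaving out TSP-4 plasmid library D moved the fold change of Mbd3 between plasmids to -0.12 on the log2 scale, from -0.05.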

How the results depend on the processing

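Each comparison was run under 19 alternatives. The count of members called between plasmids was 0 in all 19, over the 8 genes other than Mbd2. The log2 fold change of Mbd2 ran from -0.34 to -0.21, of Dnmt1 from -0.14 to -0.05 and of Mbd3 from -0.12 to -0.02. The count of all genes called between plasmids was 1, stayed at 1 with any library left out, and was 2 with the replicate block. With the replicate block and both libraries of a letter left out it was 5 without A, 4 without B, 2 without C and 1 without D. The block changed no call of the 8 genes.

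Directions near 0 turned. Tet3 was 0.0013 with DESeq2 size factors, 0.00068 with DESeq2, 0.0037 on log2(FPKM + 0.1), 0.0023 on log2(FPKM + 1), and with the replicate block 0.025 without letter C and 0.051 without D. Dnmt3a was -0.0015 with limma voom, and with the block -0.00038 without A and -0.040 without C. With the block Mbd1 was -0.023 without A and -0.0052 without C, Mbd4 0.018 without C and 0.026 without D, Tet1 -0.042 without C and -0.043 without D, and Tet2 0.0049 without D. Leaving out 1 library gave -0.11 to 0.15 for Mbd1, -0.25 to 0.047 for Mbd4, -0.056 to 0.049 for Dnmt3a, -0.10 to 0.19 for Tet1, -0.12 to 0.0064 for Tet2 and -0.040 to 0.033 for Tet3. Tet1 did not pass the filter with the block and both A libraries left out, so it has 18 alternatives.

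Between letters, 4134 genes were called by edgeR and 2716 by DESeq2's likelihood ratio test, and leaving out 1 library gave 2782 to 4253. Where 1 library was left out, the lone library of that letter is assumed to vary like the others. The members called, 1 in the main fit, were 2 without a filter, 2 with both A libraries left out and 0 with both C libraries left out, and 1 to 3 with 1 library left out. The added calls were Mbd3 (adjusted p = 0.0195 without a filter; 5 of 19 alternatives, letter A left out among them) and Dnmt1 (adjusted p = 0.0464 without empty plasmid library A). Mbd1 was called in 18 of 19. For none of these changes was the cause tested. Depth limits Tet1 (7 to 15 counts) and Mbd4 (36 to 59 counts) most.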
